A study of Coturnix japonica with 4 samples.

Results

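Nerve fibres grow into embryonic skin from sensory and autonomic ganglia, and their messenger RNA in a skin sample comes from the fibres and from any neurons present. Several of the genes are also made by other cells. A set of 10 genes that mark neurons and their fibres was chosen by name, with earlier results of these data known. Of the set, 9 are among the 12383 genes used here. The 9 are TUBB3, DCX, STMN2, NEFL, NEFM, GAP43, ELAVL4, ISL1 and SNAP25. PRPH, the gene of the peripheral neurofilament-type protein peripherin, is not analysed here.

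The skin was that of untreated Japanese quail (Coturnix japonica) embryos at embryonic day 7, dissected into stripes of black and of yellow plumage pigment. RNA sequencing was done on 2 libraries per stripe, and each library pooled 4 embryos. The sources used here give neither the sex of the embryos nor the body region of the pieces. The deposited table gives 1 RPKM value per stripe (reads per kilobase of transcript, scaled to sequencing depth), so levels are compared per length. No spread between libraries can be given for any value below, and the depth behind the values is unknown. The values are called black-labelled and yellow-labelled, because several pigment genes ran against the labels. Each direction below follows the labels and would reverse if they were exchanged, which was not tested. TYRP1, a melanosomal enzyme of dark pigment, had 2.71 RPKM in black-labelled and 68.2 RPKM in yellow-labelled skin. Epidermal markers were present in both, as with EPCAM, an epithelial adhesion protein, at 111 RPKM in black-labelled and 126 RPKM in yellow-labelled skin.

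Axons are supported by microtubules and neurofilaments. TUBB3 is the beta-tubulin isotype of neurons, DCX (doublecortin) binds microtubules of migrating and extending neurons, and STMN2 is a neuronal stathmin that regulates microtubule assembly at the growth cone. NEFL and NEFM are the light and medium neurofilament subunits. GAP43 is a membrane protein of growing axon tips, ELAVL4 (HuD) binds and stabilises neuronal messenger RNAs, ISL1 is a LIM homeobox transcription factor of sensory, sympathetic and motor neurons, and SNAP25 is part of the complex that fuses synaptic vesicles.

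The nerve genes did not share a direction between the stripes. TUBB3, NEFL, NEFM and ISL1 had the higher value in black-labelled skin, and GAP43, ELAVL4, STMN2, SNAP25 and DCX in yellow-labelled skin, a split of 4 against 5. The summed level of the 9 genes was 61.1 RPKM in black-labelled and 60.4 RPKM in yellow-labelled skin. Without DCX, the most abundant of them, the sums were 22.8 and 21.5 RPKM. In bulk tissue, fewer nerve fibres and less RNA per fibre cannot be told apart.

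In the authors' deposited table, 7 of the 9 genes were tested. Of these 7, 0 had a q-value (false discovery rate over all genes) under 0.05, against 0.331% of all genes tested. The lowest q among them was 0.109, for GAP43. An unadjusted p below 0.05 was reached in the authors' deposited table by 3 of the 7 genes that were tested there, TUBB3, GAP43 and ELAVL4, against 3.46% of all genes tested. Of the 3, TUBB3 was higher in black-labelled skin (2.07% of all genes tested were called so) and GAP43 and ELAVL4 in yellow-labelled skin (1.39% were called so). These 3 genes were picked with their values known, so the count is a description. The lowest mean of a gene with p under 1 was 0.3635 RPKM, and genes with p of 1, among them ISL1 and SNAP25, were taken as not tested. The highest mean of a gene with p of 1 was 109.35 RPKM, so a p of 1 does not mark a low level alone.

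**Figure D1:**
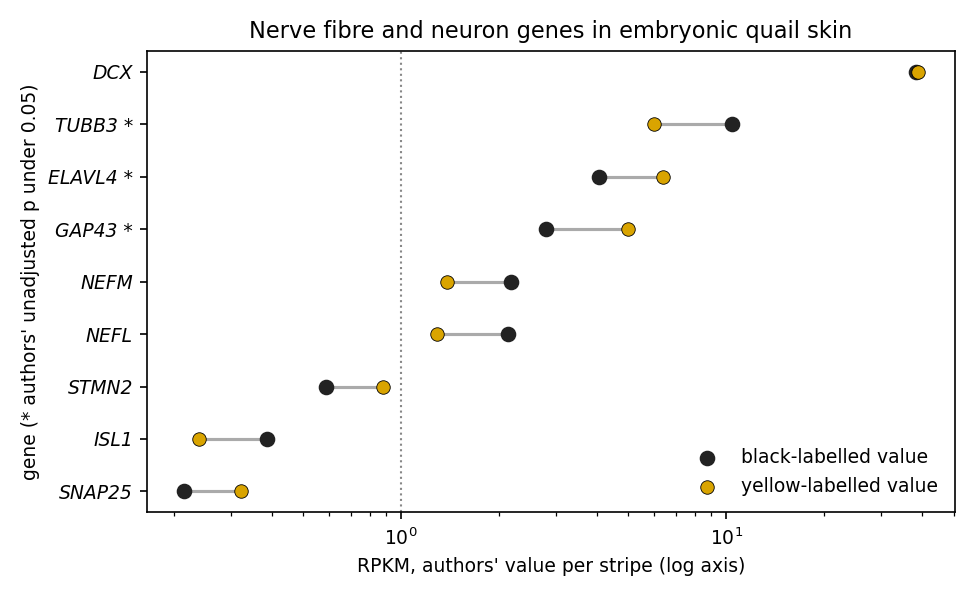
RPKM of each nerve gene in the black-labelled (black) and yellow-labelled (yellow) value on a log axis, 1 authors' value per stripe, with the dotted line at 1 RPKM. TUBB3, NEFM, NEFL and ISL1 have the black point to the right, the other genes have the yellow point to the right, and the DCX points overlap.

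TUBB3 had 10.4 RPKM in black-labelled and 5.99 RPKM in yellow-labelled skin. The ratio was 1.74-fold, or 0.80 as log2 of black over yellow, with p = 0.0021 and q = 0.231 in the authors' deposited table. A p as low or lower was found for 103 genes, TUBB3 included. Its direct neighbours in the RefSeq annotation of Coturnix japonica 2.1 lay near a ratio of 1: TCF25 had 39.0 and 38.1 RPKM, and DEF8 had 9.36 and 9.03 RPKM. Build and strand setting of the deposited values are not given in these sources.

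Of the other beta-tubulins, TUBB4B, TUBB and TUBB6 were more abundant than TUBB3, with ratios closer to 1. TUBB4B had 176 RPKM in black-labelled and 169 RPKM in yellow-labelled skin, TUBB 136 and 126 RPKM, and TUBB6 23.6 and 22.9 RPKM. TUBB1, known in mammals from platelets, had 2.73 and 3.40 RPKM. TUBB3 made up 2.99% of the summed RPKM of these 5 genes in black-labelled and 1.83% in yellow-labelled skin. Beta-tubulins are alike in sequence, and how the authors' counting divided reads that match several of them is not stated, so the level of TUBB3 is uncertain to that extent.

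DCX had 38.3 RPKM in black-labelled and 38.9 RPKM in yellow-labelled skin, a log2 ratio of -0.02 with p = 0.912 in the authors' deposited table. It was by level unlike the other nerve genes. Its mean lay above that of 84.7% of all genes, while the mean of TUBB3 lay above 43.5% and that of NEFL above 22.6%. Its relatives DCLK1 (7.49 and 7.55 RPKM) and DCLK2 (4.84 and 4.598 RPKM), kinases that carry the same microtubule-binding domain, also had nearly equal values. Within black-labelled skin the RPKM of DCX was 3.67 times that of TUBB3, and within yellow-labelled skin 6.49 times.

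STMN2 had 0.588 RPKM in black-labelled and 0.879 RPKM in yellow-labelled skin, a log2 ratio of -0.58, with p = 0.243 in the authors' deposited table. The stathmin family was almost wholly STMN1, the widely expressed member linked to dividing cells, at 1330 and 1362 RPKM. STMN3 had 0.289 and 0.212 RPKM and STMN4 0.198 and 0.359 RPKM, so the 3 neuronal stathmins were all under 1 RPKM in both stripes and had no common direction.

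NEFL and NEFM had nearly the same level. NEFL had 2.14 RPKM in black-labelled and 1.29 RPKM in yellow-labelled skin, a log2 ratio of 0.73 with p = 0.0866 in the authors' deposited table. NEFM had 2.18 and 1.38 RPKM, a log2 ratio of 0.66 with p = 0.0608 in the authors' deposited table. The RPKM of NEFL was 0.982 times that of NEFM within black-labelled and 0.933 times within yellow-labelled skin. The heavy subunit NEFH had 0.688 and 0.455 RPKM, a log2 ratio of 0.60 with p = 0.16 in the authors' deposited table. By value all 3 subunits were thus higher in black-labelled skin, and none passed the threshold. NEFL and NEFM are direct neighbours in Coturnix japonica 2.1. INA, a further neuronal filament subunit, had 0.659 and 0.648 RPKM. The filament protein of mesenchyme, VIM, had 317 and 295 RPKM, and NES, the filament protein of progenitors, 20.2 and 25.9 RPKM.

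GAP43 had 2.79 RPKM in black-labelled and 4.99 RPKM in yellow-labelled skin. The ratio was 1.79-fold in favour of yellow-labelled skin, the widest among the 9 genes, with p = 0.00065 and q = 0.109 in the authors' deposited table. In all, 64 genes, GAP43 included, had a p at or below that. BASP1 and MARCKS, membrane proteins with a similar calmodulin-regulated role, had 297 and 300 RPKM and 59.3 and 60.4 RPKM. The level of TUBB3 was 3.74 times that of GAP43 within black-labelled skin and 1.20 times within yellow-labelled skin. By value TUBB3 and GAP43 thus stood in unequal proportion, which restates their opposite ratios.

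ELAVL4 had 4.07 RPKM in black-labelled and 6.41 RPKM in yellow-labelled skin, a 1.57-fold ratio in favour of yellow-labelled skin with p = 0.00925 and q = 0.597 in the authors' deposited table. ELAVL1, the relative found in all cells, had 87.3 and 85.5 RPKM, and ELAVL2, another neuronal relative, 0.199 and 0.201 RPKM. ELAVL4 therefore ranked above TUBB3 in yellow-labelled skin and below it in black-labelled skin.

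ISL1 had 0.387 RPKM in black-labelled and 0.239 RPKM in yellow-labelled skin, and SNAP25 had 0.215 and 0.322 RPKM. Both have p = 1 in the authors' deposited table, and their means lay above those of 11.7% and 11.1% of all genes. The relatives of SNAP25 that serve secretion in all cells, SNAP23 (24.9 and 23.3 RPKM) and SNAP29 (21.0 and 21.5 RPKM), had nearly equal values. ISL1 is in mouse also a gene of hindlimb mesenchyme, and some limb genes had wide ratios here. PITX1, which specifies hindlimb, had 5.39 RPKM in black-labelled and 0.818 RPKM in yellow-labelled skin, and HAND2, a posterior limb and sympathetic neuron factor, 9.64 and 0.181 RPKM. PITX1 had q = 0.0177 and HAND2 q = 0.0634 in the authors' deposited table. TBX4, the hindlimb T-box gene, had 0.268 and 0.279 RPKM. The part of these genes in the ISL1 values was not tested.

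By mean level the order ran from DCX through TUBB3, ELAVL4, GAP43, NEFM, NEFL, STMN2 and ISL1 to SNAP25. With 1 value per stripe, whether neighbours in this order differ beyond their spread cannot be told. ELAVL4 and TUBB3 exchanged places between the stripes, as did ISL1 and SNAP25.

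**Figure D2:**
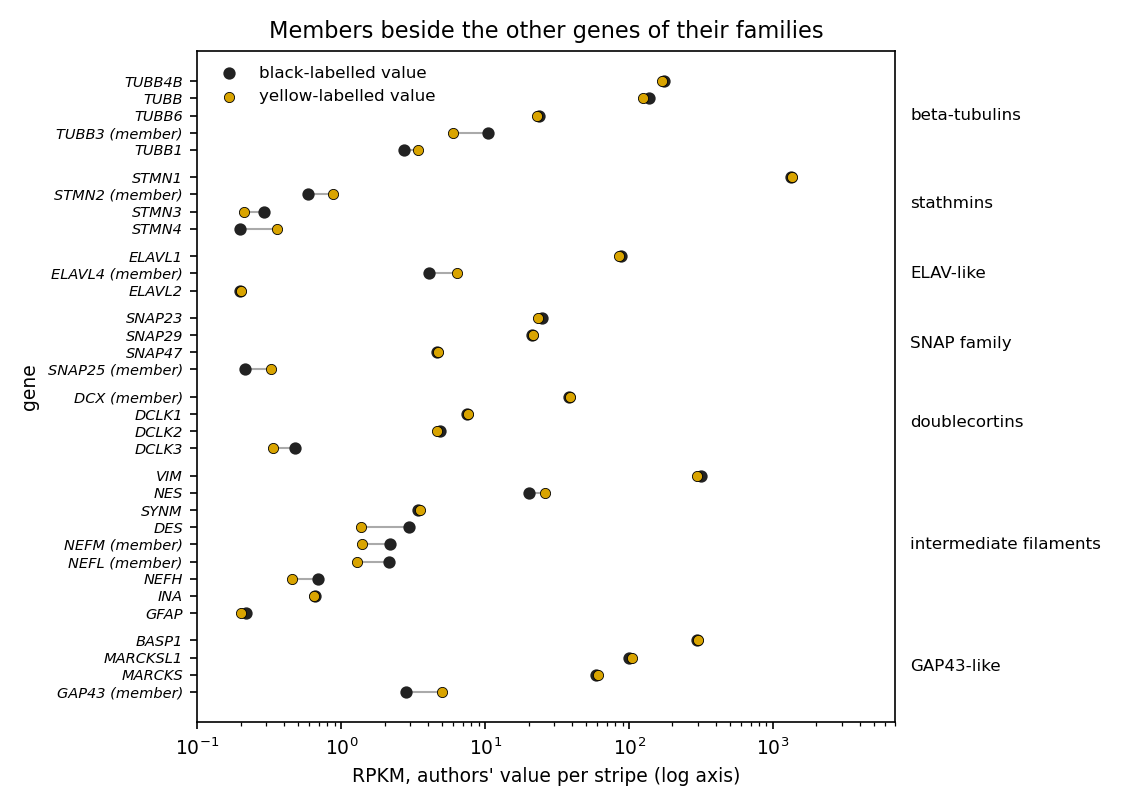
RPKM of the nerve genes other than ISL1 (marked as member) and of the other genes of their families. The black-labelled (black) and yellow-labelled (yellow) values are on a log axis, 1 authors' value per stripe. The widely expressed relatives TUBB4B, STMN1, ELAVL1, SNAP23, VIM and BASP1 lie far to the right with nearly overlapping points, whereas DCX is itself the highest gene of its family.

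The size of these ratios has to be read against the level of the genes. At a mean of at least 1 RPKM, 5 of 6 measured nerve genes of the set were at least 1.5-fold apart, against 2.86% of all measured genes. The log2 ratio of all measured genes had an SD of 0.25. The set was chosen with earlier results of these data known, so this count is a description. In the wider nerve lists without these 9 genes, 6 of 74 measured genes were at least 1.5-fold apart. None of the 9 was 2-fold apart. Low genes were further apart in general. Among all genes with a mean from 3 to below 10 RPKM, the band of TUBB3, ELAVL4 and GAP43, 3.60% were at least 1.5-fold apart, and from 1 to below 3 RPKM, the band of NEFL and NEFM, 12.2% were. From 0.1 to below 1 RPKM, the band of STMN2, ISL1 and SNAP25, the share was 31.6%, and from 10 to below 100 RPKM, the band of DCX, it was 1.04%. The median log2 ratio of the 6 measured genes of the set was 0.32, and that of all 9 was -0.02, against -0.00 over all measured genes. The median thus followed which low genes were counted.

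**Figure D3:**
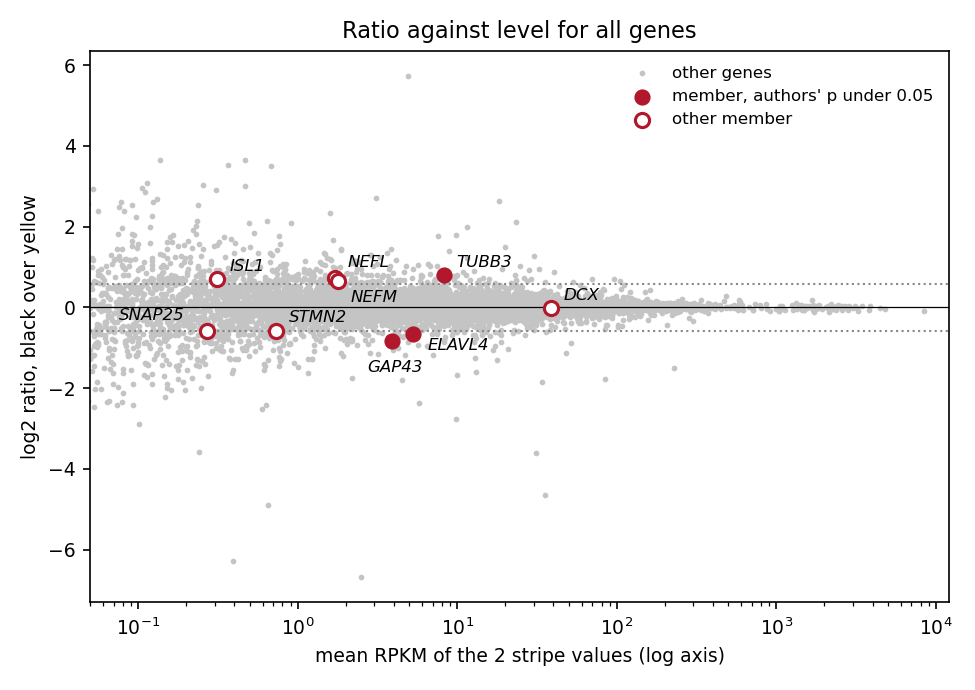
Log2 ratio of black over yellow against the mean RPKM of both values (log axis) for genes above 0 in both and with a mean of at least 0.05 RPKM, with nerve genes in red and dotted lines at 1.5-fold. TUBB3, NEFL, NEFM and ISL1 lie above the upper line, GAP43 and ELAVL4 below the lower line, STMN2 and SNAP25 just inside it, and DCX at 0.

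Beside these 9, lists of other nerve genes hold 129 genes of the table. Of the 89 tested, 0 had a q under 0.05 in the authors' deposited table, and 7 had an unadjusted p under 0.05. All 7 were higher in black-labelled skin: CRMP1, CNTN4, RBFOX1, GFRA4, TAC1, VIP and SLC18A2. Across all genes tested, the share called higher in black-labelled skin at this p is the 2.07% given above, but it depends on level. From 3 to below 10 RPKM, the band of CRMP1, RBFOX1 and GFRA4, 4.28% of genes tested had such a p in either direction. From 1 to below 3 RPKM, the band of CNTN4 and SLC18A2, 7.83% did. From 0.1 to below 1 RPKM, the band of TAC1 and VIP, 8.69% did. Of the 74 measured genes, 38 had the higher value in black-labelled and 36 in yellow-labelled skin, with a median log2 ratio of 0.02. Of all measured genes, 49.7% were higher in black-labelled skin.

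The counts and medians of single lists below include those of the 9 genes that a list holds. Their counts by direction stand beside the 49.7% of all measured genes that were higher in black-labelled skin. In the axon cytoskeleton list, 15 of 22 genes were measured, 7 of them higher by value in black-labelled skin, TUBB3, NEFL and NEFM among these. CRMP1, a collapsin response mediator that relays guidance signals to the cytoskeleton, had 4.64 RPKM in black-labelled and 2.995 RPKM in yellow-labelled skin, with p = 0.0334 in the authors' deposited table. Its relatives DPYSL2 (83.3 and 85.3 RPKM) and DPYSL3 (71.1 and 83.7 RPKM) were, after STMN1, the most abundant members. The list's median log2 ratio was -0.01, and 0.01 with no floor on level.

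In the growth cone and adhesion list, 15 of 17 genes were measured, 5 of them higher by value in black-labelled skin and GAP43 among the 10 others. CNTN4, an axonal contactin, had 3.93 RPKM in black-labelled and 1.95 RPKM in yellow-labelled skin, a 2.02-fold ratio with p = 0.0005 and q = 0.0933 in the authors' deposited table. The direction was opposite to that of GAP43. The abundant adhesion molecules NCAM1 (83.4 and 83.7 RPKM) and THY1 (78.1 and 71.1 RPKM) had similar values, as did BASP1, given above. The list's median was -0.03.

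Among neuronal RNA-binding proteins, 6 of 9 were measured, ELAVL4 among them. RBFOX1, a splicing factor of neurons and muscle, had 6.003 RPKM in black-labelled and 3.27 RPKM in yellow-labelled skin, a 1.84-fold ratio with p = 0.0016 and q = 0.201 in the authors' deposited table, in the direction opposite to ELAVL4. RBFOX3, the antigen NeuN of mature neurons, had 2.202 and 1.40 RPKM with p = 0.0841 in the authors' deposited table, and was chosen after its values were seen. MSI1 (21.6 and 21.0 RPKM), CELF5 (13.1 and 12.8 RPKM) and NOVA1 (6.63 and 6.54 RPKM) were nearly equal. The list's median was 0.04.

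Transcription factors that define peripheral neurons were at or near 0. POU4F1, the sensory neuron factor, had 0.264 RPKM in black-labelled and 0.219 RPKM in yellow-labelled skin. NEUROG1, POU4F3 and SCRT1 were listed at 0 in both stripes. Of 25 genes in this list 7 were measured and 0 had an unadjusted p below 0.05 in the authors' deposited table. Of its abundant members, GATA3, also a gene of epidermis, had 50.5 and 65.5 RPKM, REST, the repressor of neuronal genes in other cells, 17.7 and 17.7 RPKM, and RUNX3 8.13 and 7.11 RPKM. The list's median was -0.00, and 0.05 with no floor over the genes above 0 in both values. That leaves out POU4F2, NEUROD1, NEUROD4 and TLX1, above 0 only in yellow-labelled skin, and INSM2, above 0 only in black-labelled skin. The sign of the median with no floor is therefore not settled.

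Genes of vesicle release held 21 measured of 28, with 12 higher by value in black-labelled skin and 0 at an unadjusted p below 0.05 in the authors' deposited table. NSF (31.3 and 30.1 RPKM) and SYT11 (18.3 and 19.0 RPKM) were among the most abundant, and none of the measured genes was 1.5-fold apart. The list's median was 0.08, and -0.09 with no floor.

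Neurotrophic ligands, by which skin sustains growing fibres, had 5 of 8 measured and 0 at an unadjusted p below 0.05 in the authors' deposited table. NTF3 had 6.81 RPKM in black-labelled and 6.23 RPKM in yellow-labelled skin, and BDNF 3.30 and 4.70 RPKM. Of the receptors, 8 of 12 were measured. GFRA4, a co-receptor of the GDNF family, had 3.79 and 2.56 RPKM, with p = 0.044 in the authors' deposited table. CNTFR (42.3 and 50.0 RPKM), NGFR (32.7 and 26.7 RPKM) and LIFR (24.5 and 23.0 RPKM) were the most abundant. The medians were 0.02 for the ligands and 0.13 for the receptors. With no floor they were -0.04 and -0.18, and the receptor median was -0.03 at a floor of 5 RPKM, so neither has a settled sign.

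Genes of sensory and autonomic function had 3 of 17 measured, PIEZO2, ASIC1 and SLC18A2. Of the 10 tested in the authors' deposited table, 3 had an unadjusted p below 0.05, all higher in black-labelled skin, against the 2.07% of all genes tested. VIP and TAC1 lie from 0.1 to below 1 RPKM, where the share in either direction was the 8.69% given above. VIP, a neuropeptide of autonomic fibres, had 1.24 RPKM in black-labelled and 0.11 RPKM in yellow-labelled skin (p = 0.0244 in the authors' deposited table). TAC1, the substance P precursor, had 1.08 and 0.404 RPKM and SLC18A2, the vesicular monoamine transporter, 1.59 and 0.926 RPKM. Their p-values in the authors' deposited table were 0.0335 and 0.0476, and all 3 genes had a q of 1 in it. PIEZO2, the channel of light touch, had 12.4 and 13.0 RPKM and the acid sensor ASIC1 5.18 and 5.21 RPKM, while DDC, which makes monoamines, had 0.815 and 0.823 RPKM. The median of the measured genes was -0.01. With no floor it was 0.25 over the genes of the list above 0 in both values, which leaves out SLC17A6.

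**Figure D4:**
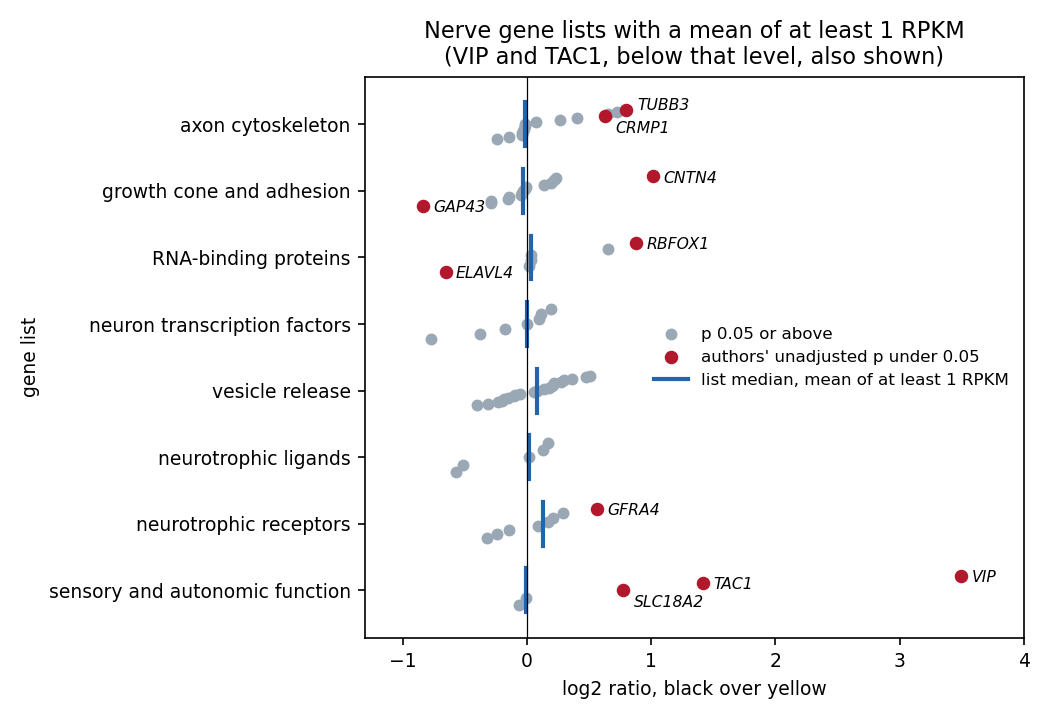
Log2 ratio of black over yellow for the measured genes of 8 nerve gene lists, and for VIP and TAC1, whose means are under 1 RPKM. Genes at an unadjusted p below 0.05 in the authors' deposited table are in red. The blue bar is the median of the measured genes of a list. The red points lie to the right of 0 except GAP43 and ELAVL4, and the medians run from -0.03 to 0.13.

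Markers of other cells that nerve genes can accompany were read on the same scale. The Schwann cell list had 4 of 14 tested genes at an unadjusted p below 0.05 in the authors' deposited table, against 3.46% of all genes tested, with a summed level of 207 RPKM in black-labelled and 226 RPKM in yellow-labelled skin. PTPRZ1, a receptor phosphatase of glia and other cells, had 10.8 and 22.5 RPKM (q = 0.0177 in that table). NRN1, also made by neurons, had 4.64 and 1.94 RPKM, the crest factor FOXD3 11.8 and 7.36 RPKM, and the integrin ITGA4 21.97 and 15.1 RPKM. In the authors' deposited table their p-values were 0.0009, 0.0148 and 0.00775. PMP22 (69.0 and 76.5 RPKM), SOX10 (22.4 and 25.2 RPKM) and POU3F1 (18.2 and 23.1 RPKM) were the most abundant others. The part of these genes in the nerve gene values was not tested.

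The spinal cord list summed to 2.43 RPKM in black-labelled and 2.64 RPKM in yellow-labelled skin over 16 genes, with 1 gene measured, SOX1 (1.11 and 1.05 RPKM), and NKX2-2 listed at 0 in both. The Merkel cell list, touch receptor cells of the epidermis, summed to 53.5 and 42.2 RPKM over 8 genes, 0 of them at an unadjusted p below 0.05 in the authors' deposited table. Most of that sum was KRT18 (28.5 and 18.0 RPKM) and PIEZO2, while the Merkel factor ATOH1 had 0.741 and 0.972 RPKM and POU4F3 was listed at 0 in both.

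The skeletal muscle list summed to 42.3 RPKM in black-labelled and 26.9 RPKM in yellow-labelled skin over 14 genes, with MYF6 listed at 0 in both. Of 5 genes measured, 4 were higher by value in black-labelled skin, and ACTA1 (6.75 and 7.89 RPKM) in yellow-labelled skin. TNNC1 was the most abundant, at 25.1 and 13.0 RPKM. With a mean below 1 RPKM, TNNI1 had 0.857 and 1.12 RPKM. The muscle factors MYOD1 (0.137 and 0.026 RPKM) and MYOG (0.061 and 0.027 RPKM) were near 0. In the authors' deposited table PAX7, DES and TNNC1, of 6 genes tested, had an unadjusted p under 0.05 (3.46% of all genes tested did). All of these were higher in black-labelled skin. The limb list summed to 113 and 83.8 RPKM over 11 genes, with HAND1 listed at 0 in both. Of 8 limb genes tested, PITX1, HAND2 and FGF10 had such a p and were higher in black-labelled skin, and TBX2 in yellow-labelled skin. The smooth muscle list summed to 97.5 and 114 RPKM over 10 genes, with MYH11, ACTA2 and MYOCD at such a p and higher in yellow-labelled skin and DES in the other direction. The epidermal list summed to 429 and 480 RPKM over 9 genes, 0 of them at such a p. The melanocyte list summed to 236 and 623 RPKM over 12 genes. Of these 12, all tested, TYR, TYRP1, DCT, PMEL, MLANA and OCA2 were higher in yellow-labelled skin at such a p. By value, 4 genes were higher in black-labelled skin: KIT (30.8 and 23.6 RPKM), SLC45A2 (9.15 and 7.31 RPKM), PAX3 (6.89 and 5.75 RPKM) and EDNRB (2.14 and 1.96 RPKM). The part of these lists in the nerve gene values was not tested.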

How the data were processed

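Skin of both stripes was profiled in 4 libraries. The submitters' processing notes name TopHat2 2.1.1 and Cufflinks 2.2. Not given in the sources used here are genome build, annotation, strand setting and how the 2 libraries of a stripe were combined. The deposited RPKM values, 1 per stripe, were computed by the authors, per the file headers. Per the file headers, the unadjusted p-value and the q-value per gene are those of the authors' own comparison, saved out of QIAGEN software. By the labels, the authors' log2 ratio is black over yellow. It differed by at most 0.01 from one computed from the RPKM values in each of the 10503 genes at or above 0.5 RPKM in both. A further deposited column, a score that marks genes, was not used.

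Of 12419 table rows, 11 with a date number as gene ID and 25 with 4 repeated IDs were left out. RefSeq names (Coturnix japonica 2.1) matched 11844 of the 12383 genes used and all 10 genes of the set. The 10569 genes with p under 1 counted as tested, and a mean of at least 1 RPKM (10061 genes) as measured. Ratios have no pseudocount, so a gene at 0 in either value has no ratio and enters no median. With 1 value per stripe no test was run here, and the calls are the authors' q under 0.05 over all genes. Whether the 2 libraries of a stripe were biological replicates in those p-values is not given. Among 452 genes between 0 and 0.1 RPKM in both values, 378 different ratios occurred, so depth could not be read from low values.

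The genes and lists were chosen with earlier results of these data known. Named are the 9 genes and, from each of 16 lists, genes with an authors' p under 0.05 and the 3 most abundant others. For lists of other cell types the most abundant genes are given only in part. Some genes that the rule takes are not reported here. Families of related genes, direct neighbours, bands of level, and genes named besides were chosen after values were seen. Computations used Python 3.11.15 and pandas 2.3.3, with the adjustment tested on simulated data.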

Additional observations from a re-analysis of the deposited data

How the results depend on the processing

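No paired analysis was possible because the table holds 1 value per stripe, and for the same reason no library could be left out. The count of 0 nerve genes with a q under 0.05 in the authors' deposited table was also 0 at q under 0.1, at q under 0.01 and with p-values adjusted again over measured genes. The 3 genes at an unadjusted p under 0.05 were also 3 at p under 0.01. The median log2 ratio of the nerve genes, 0.32, was -0.021 with no floor and -0.021 at a floor of 5 RPKM, which leave other genes in. It was 0.20 with a pseudocount of 1 RPKM, 0.30 with one of 0.1 RPKM and 0.33 when scaled by the upper quartile. The 5 genes at least 1.5-fold apart became 2 with a pseudocount of 1 RPKM, which shrinks ratios of low genes by construction, and 0 at a fold of 2. Over all nerve lists, 8 measured genes had an unadjusted p under 0.05 in that table, and 2 did at a floor of 5 RPKM. Of 16 list medians under another floor, 9 had the same sign as the main one. With no floor the sign turned for axon cytoskeleton (0.01), transcription factors (0.05), vesicle release (-0.09) and neurotrophic ligands (-0.04). It also turned for receptors (-0.18) and sensory function (0.25), and at a floor of 5 RPKM for receptors (-0.03). Genes at 0 in either value have no ratio and are left out of these medians. Several transcription factors are among them, so the turn in that list depends on leaving them out. The other alternatives moved no count by over 1.5 times. The unknown depth limits what can be said of STMN2, ISL1 and SNAP25, all under 1 RPKM.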

Other observations

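SST, the gene of the neuropeptide somatostatin, is on no nerve list used here and was chosen after its values were seen. It had 38.1 RPKM in black-labelled and 8.77 RPKM in yellow-labelled skin, with q = 0.0177 in the authors' deposited table. It shared its direction with VIP and TAC1, the neuropeptide genes at an unadjusted p under 0.05 in that table. These genes were picked by their values, so the shared direction is only a description. In black-labelled skin the level of SST was higher than that of any of the 9 nerve genes other than DCX. ISL2, the relative of ISL1, had 0.134 and 0.022 RPKM. Within a stripe the RPKM of TUBB3 was 2.56 times that of ELAVL4 in black-labelled and 0.934 times in yellow-labelled skin, and that of NEFM was 0.779 and 0.277 times that of GAP43.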
